A study of Mus musculus with 6 samples.

Results

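The heavy chains of the class I major histocompatibility complex (MHC) were followed in RNA from the lateral amygdala of mice. The family was taken as 10 gene symbols, of 50383 genes in the deposited tables: the classical genes H2-D1 and H2-K1, the Q-region genes H2-Q4, H2-Q5, H2-Q6 and H2-Q7, the T-region genes H2-T22, H2-T23 and H2-T24, and H2-M3. The family was chosen by its FPKM in these same libraries, in which it differed between groups, so the levels and differences of its genes are given as a description. There were 3 groups of 2 libraries, all from male mice of a 129xC57BL/6 hybrid strain aged 2 to 3 months. In the Baf53b siRNA group, an siRNA (a short RNA duplex that targets a transcript for cleavage) against BAF53b had been injected 1 day after training. BAF53b is a subunit of the neuronal BAF nucleosome remodelling complex and is encoded by Actl6b. The scrambled siRNA group was labelled with an siRNA of scrambled sequence, and the control group was labelled only as control. What the control mice received, and whether scrambled siRNA and control mice were trained, was not stated in the labels. The protocol names tissue from 4 mice without saying whether a library is a pool, so the spread between libraries may be partly technical.

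Class I heavy chains pair with beta-2 microglobulin, encoded by B2m, and carry peptides from the cytosol to the cell surface. There the classical molecules H2-K and H2-D are read by CD8 T cells, and several non-classical molecules are read by natural killer cells or by specialised T cells. Peptides are cut by the proteasome, in which interferon-induced subunits can replace the standard ones, and are pumped into the endoplasmic reticulum by the TAP transporter. Transcription of the heavy chains is raised by interferons and tumour necrosis factor, through a kB element, an interferon response element and a promoter module bound by RFX factors, CREB family factors, NF-Y and NLRC5. In mouse brain, class I transcripts are known from microglia and endothelial cells and, at low levels, from neurons, where they have been studied in synaptic plasticity.

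Levels were deposited as FPKM, fragments scaled to transcript length and to the size of the library, so levels may be compared between genes. From the width of the deposited intervals, the depth per library was put at 6.43 M to 10.7 M fragments, counting error alone being considered. Actl6b, the targeted gene, stood at 42.8 and 39.6 FPKM in the Baf53b siRNA libraries, against 43.8 and 43.9 FPKM in scrambled siRNA, with control at 42.9 and 44.1 FPKM. Baf53b siRNA differed from scrambled siRNA by -0.09 on the log2 scale (SE 0.12, limma adjusted p = 1), so a lower level of the target was not detectable. Every direction below therefore refers to the libraries labelled Baf53b siRNA. The 6 markers of the lateral and basolateral amygdala, led by Lypd1 and Slc17a7, all passed the filter on low values. Their summed FPKM was between 1240 and 1606 in all 6 libraries, and most of it was Lypd1. All 6 markers were lower in Baf53b siRNA than in scrambled siRNA, with a median log2 difference of -0.22 and 0 called.

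All 10 genes lie on chromosome 17 (mm10 coordinates of the deposited tables), within 3278 kb. H2-K1 (ENSMUSG00000061232.15, chr17:33996017-34000333, minus strand) stands alone at the near end. H2-D1 (ENSMUSG00000073411.11, chr17:35262730-35267499, plus strand) lies 1262 kb further on. It is followed by H2-Q4 (ENSMUSG00000035929.11, chr17:35379617-35385290), H2-Q5 (ENSMUSG00000055413.12, chr17:35394126-35397800), H2-Q6 (ENSMUSG00000073409.12, chr17:35424850-35430055) and H2-Q7 (ENSMUSG00000060550.15, chr17:35439155-35443773), all on the plus strand. The T-region genes are on the minus strand within 37.1 kb: H2-T24 (ENSMUSG00000053835.17, chr17:36005695-36020560), H2-T23 (ENSMUSG00000067212.8, chr17:36029773-36032855) and H2-T22 (ENSMUSG00000056116.18, chr17:36037128-36042747). H2-M3 (ENSMUSG00000016206.6, chr17:37270220-37274484, plus strand) stands at the far end. GENCODE M21 lists 9 of them as protein-coding and H2-Q5 as a polymorphic pseudogene, a gene that is coding in some strains only.

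The promoters are shown because those of the classical genes and of the Q-region genes searched share a pair of elements that was not found in full in H2-T22, H2-T23 and H2-M3. RefSeq (GRCm38.p6, the assembly behind mm10) gave a promoter for 8 of the 10 genes, all but H2-Q5 and H2-T24. Each line holds the 250 bases before the annotated start, read along the gene's strand, with matches to the kB letters GGGATTNCC and to the interferon factor letters AANNGAAA on either strand in capitals. Lines are given for H2-D1 (chr17:35262844-35263093, plus strand), H2-K1 (chr17:34000334-34000583, minus), H2-Q7 (chr17:35438905-35439154, plus), H2-T22 (chr17:36042743-36042992, minus) and H2-T23 (chr17:36032702-36032951, minus). For H2-D1, H2-T23 and H2-T22 the RefSeq start lies 364, 154 and 5 bases inside the deposited locus. The bases shown for H2-D1 thus lie within that locus, and those for H2-T23 partly do. No search was made from the deposited starts.
H2-D1: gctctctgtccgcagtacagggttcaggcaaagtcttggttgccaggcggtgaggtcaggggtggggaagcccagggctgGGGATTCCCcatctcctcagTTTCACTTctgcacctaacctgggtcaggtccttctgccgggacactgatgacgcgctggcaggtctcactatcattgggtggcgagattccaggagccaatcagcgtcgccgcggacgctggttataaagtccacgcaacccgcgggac
H2-K1: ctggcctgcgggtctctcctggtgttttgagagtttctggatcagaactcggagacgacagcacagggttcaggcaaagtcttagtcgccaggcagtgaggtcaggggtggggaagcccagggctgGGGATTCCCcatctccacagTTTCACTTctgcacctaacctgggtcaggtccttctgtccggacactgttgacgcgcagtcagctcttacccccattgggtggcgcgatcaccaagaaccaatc
H2-Q7: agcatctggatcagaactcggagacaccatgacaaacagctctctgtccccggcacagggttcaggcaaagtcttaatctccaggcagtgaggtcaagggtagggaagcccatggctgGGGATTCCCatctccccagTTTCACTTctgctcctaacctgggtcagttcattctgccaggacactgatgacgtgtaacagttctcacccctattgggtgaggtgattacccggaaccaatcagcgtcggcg
H2-T22: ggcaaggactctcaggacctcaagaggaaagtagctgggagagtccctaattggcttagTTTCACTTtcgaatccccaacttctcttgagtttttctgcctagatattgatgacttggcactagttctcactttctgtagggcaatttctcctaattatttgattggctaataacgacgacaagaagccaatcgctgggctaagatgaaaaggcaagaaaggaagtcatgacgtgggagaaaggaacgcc
H2-T23: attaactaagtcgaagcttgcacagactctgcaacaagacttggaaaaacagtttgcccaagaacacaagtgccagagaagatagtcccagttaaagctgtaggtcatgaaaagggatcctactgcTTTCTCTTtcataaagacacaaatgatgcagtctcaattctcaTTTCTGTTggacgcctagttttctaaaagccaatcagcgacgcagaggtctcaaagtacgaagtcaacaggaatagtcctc

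The kB letters were found in 5 of the 8 promoters, those of H2-D1, H2-K1, H2-Q4, H2-Q6 and H2-Q7, and not in those of H2-T22, H2-T23 and H2-M3. They were found in 0.8219% of all 32851 promoters of the same length. The letters were set with these promoters in view, so the share and the split among the 8 are a description. Near matches were not searched. The H2-M3 promoter, for example, holds gagattccc where the kB letters would read gggattccc. The interferon factor letters AANNGAAA were in all 8, against 21.31% of all promoters, and the single form AAGTGAAA was in all but that of H2-T23, against 1.361%. From the first base of the kB match to the first base of the interferon factor match there were 20 bases in H2-D1, H2-K1, H2-Q4 and H2-Q6 and 19 in H2-Q7. Both matches together were found in 56 promoters, 0.1705% of all. The kB match began at position -170 from the start of H2-D1, -124 from that of H2-K1 and -132 from that of H2-Q7. The letters TGACG, the core of a CREB element, were in 6 of the 8 promoters (17.77% of all), and CCAAT, the letters that NF-Y reads, in all 8 (33.85% of all). The TATA letters TATAAA were in 2, those of H2-D1 and H2-Q4 (12.37% of all). All letters were searched on both strands, and no match overlapped one of another kind, as the map of matches shows. A match says only that these letters are there.

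**Figure D1:**
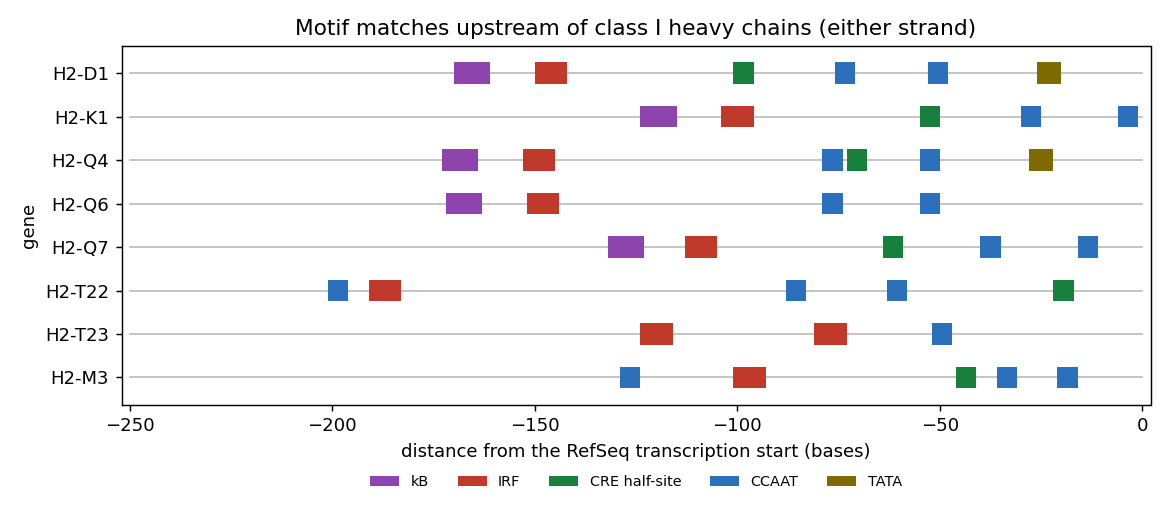
Positions of motif matches in the promoters of the 8 class I heavy chain genes that RefSeq lists; the horizontal axis is the distance in bases from the RefSeq start, and each coloured block is a match on either strand (kB, interferon factor or IRF, CREB half-site, CCAAT and TATA). The kB and IRF matches form a pair in the 5 promoters of H2-D1, H2-K1, H2-Q4, H2-Q6 and H2-Q7.

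The classical genes H2-D1 and H2-K1 had the highest levels of the family in the Baf53b siRNA and scrambled siRNA libraries. H2-D1 stood at 103.8 and 73.9 FPKM in the Baf53b siRNA libraries, at 21.04 and 19.44 FPKM in scrambled siRNA and at 7.48 and 6.43 FPKM in control. All 3 groups were apart, and the Baf53b siRNA libraries lay furthest from each other. The mean was 88.8 ± 21.2 FPKM in Baf53b siRNA, 20.2 ± 1.13 FPKM in scrambled siRNA and 6.96 ± 0.742 FPKM in control (SD, n = 2 each), a ratio of means of 4.39 to scrambled siRNA and 12.8 to control. On a log2(FPKM + 1) scale, where genes of low FPKM differ by less than their ratio, H2-D1 was higher by 2.06 (SE 0.19) than in scrambled siRNA and by 3.48 (SE 0.19) than in control.

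H2-K1 stood at 90.4 and 52.6 FPKM in Baf53b siRNA, at 16.3 and 14.2 FPKM in scrambled siRNA and at 7.38 and 5.27 FPKM in control. The groups stood in the same order as for H2-D1 and did not overlap. The ratio of mean FPKM was 4.68 to scrambled siRNA and 11.3 to control, and the log2 differences were 2.11 (SE 0.27) and 3.27 (SE 0.27). The scrambled siRNA libraries were themselves above control for both classical genes, with mean FPKM 2.91 times as high for H2-D1 and 2.42 times as high for H2-K1. The deposited intervals implied between 998 and 1380 fragments per gene and library in Baf53b siRNA and between 122 and 189 in control, so counting error is small against these differences.

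The Q-region genes were low in control and stood far above it in Baf53b siRNA. H2-Q4, the highest of them, stood at 16.7 and 9.96 FPKM in Baf53b siRNA, at 1.91 and 2.24 FPKM in scrambled siRNA and at 1.13 and 0.559 FPKM in control. The mean FPKM in Baf53b siRNA was 6.42 times that in scrambled siRNA, and the 3 groups did not overlap. H2-Q6 and H2-Q7 belong to the genes that encode Qa-2, a non-classical molecule that can be held in the membrane by a lipid anchor. H2-Q7 stood at 13.9 and 6.40 FPKM in Baf53b siRNA, at 0.957 and 0.680 FPKM in scrambled siRNA and at 0.111 and 0.0560 FPKM in control. H2-Q6 stood at 9.47 and 4.85 FPKM in Baf53b siRNA, at 0.916 and 0.937 FPKM in scrambled siRNA and at 0.194 and 0.0530 FPKM in control. For both, replicate 1 of Baf53b siRNA was well above replicate 2, and even the lower library was above every library of the other groups. In control, H2-Q6 and H2-Q7 rested on 5 implied fragments or fewer per library, so no ratio to control is given.

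H2-Q5 stood at 4.18 and 6.91 FPKM in Baf53b siRNA, at 0.245 and 0.269 FPKM in scrambled siRNA and at 0.162 and 0 FPKM in control. Its deposited 95% intervals in Baf53b siRNA ran from 0 to 10.4 FPKM and from 0 to 13.8 FPKM. The level of H2-Q5 is therefore very uncertain in every library. Read as counting error alone, these intervals would stand for 1.8 and 4.0 fragments. Those of H2-M3, at 2.76 and 1.81 FPKM in the same libraries, stood for 64.5 and 51.9. The figures for H2-Q5 may thus not be fragment counts. On the log2(FPKM + 1) scale the Q-region genes were higher in Baf53b siRNA than in scrambled siRNA by 2.18 (H2-Q4), 2.35 (H2-Q5), 2.02 (H2-Q6) and 2.53 (H2-Q7), with SE between 0.23 and 0.31.

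The T-region genes and H2-M3 differed less. H2-T23, which encodes Qa-1, a ligand of the CD94 and NKG2 receptors of natural killer cells, stood at 19.0 and 11.7 FPKM in Baf53b siRNA, at 7.04 and 6.13 FPKM in scrambled siRNA and at 4.46 and 4.18 FPKM in control. Its groups did not overlap, and its mean FPKM in Baf53b siRNA was 2.33 times that in scrambled siRNA and 3.55 times that in control. H2-T22, a ligand of some gamma delta T cell receptors, stood at 11.4 and 8.63 FPKM in Baf53b siRNA, at 7.05 and 4.88 FPKM in scrambled siRNA and at 4.74 and 6.23 FPKM in control. Its scrambled siRNA and control libraries overlapped, and the mean FPKM in Baf53b siRNA was 1.68 times that in scrambled siRNA. H2-T24 stood at 2.51 and 3.28 FPKM in Baf53b siRNA, at 1.76 and 1.66 FPKM in scrambled siRNA and at 1.29 and 1.41 FPKM in control. H2-M3, which presents peptides that begin with formyl-methionine, as bacterial and mitochondrial ones do, stood at 2.76 and 1.81 FPKM in Baf53b siRNA, at 1.10 and 0.759 FPKM in scrambled siRNA and at 0.697 and 0.404 FPKM in control. Both were higher in each Baf53b siRNA library than in any other, H2-T24 by a ratio of mean FPKM of 1.69 to scrambled siRNA and H2-M3 by 2.45.

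**Figure D2:**
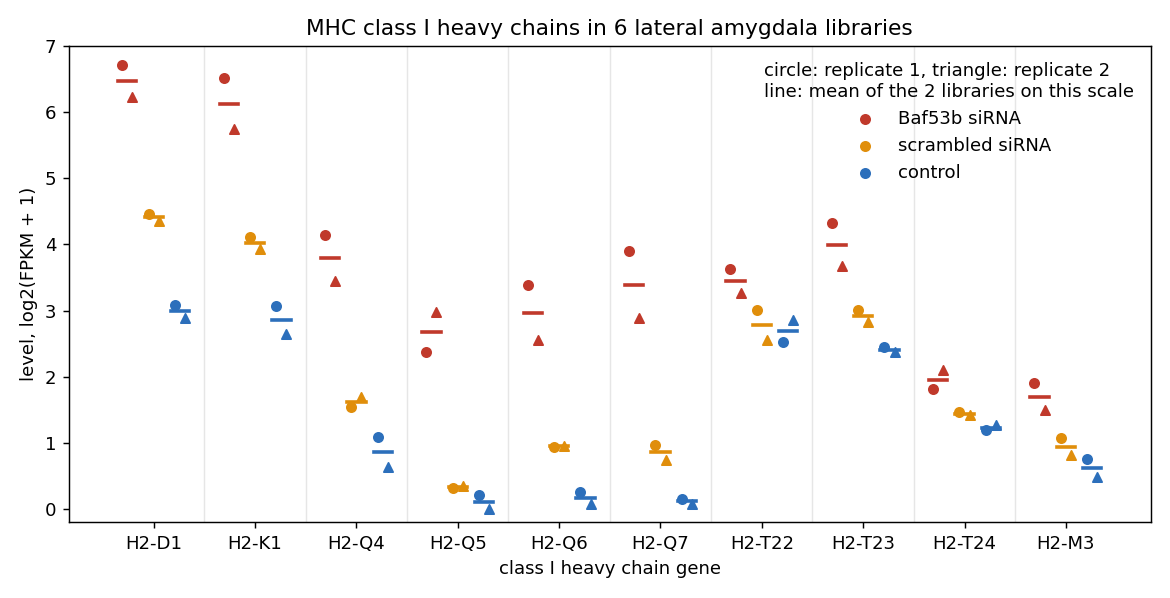
Level of the 10 class I heavy chain genes as log2(FPKM + 1) in each library; circles are replicate 1, triangles replicate 2 and lines the mean of the group, with Baf53b siRNA in red, scrambled siRNA in orange and control in blue. Both Baf53b siRNA libraries lie above all others for each of the 10 genes, and H2-T22 is the gene whose scrambled siRNA and control libraries overlap.

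The 10 genes fell in a pair of separate ranges in the comparisons with Baf53b siRNA. Between Baf53b siRNA and scrambled siRNA the log2 difference lay between 2.02 and 2.53 for the 6 genes H2-D1, H2-K1 and H2-Q, and between 0.51 and 1.07 for the 4 genes of the T region and H2-M3. Between Baf53b siRNA and control the ranges were 2.57 to 3.48 and 0.72 to 1.58. Between scrambled siRNA and control the ranges of the same genes overlapped, at 0.22 to 1.42 and 0.10 to 0.51. The median log2 difference of the 10 genes was 2.04 between Baf53b siRNA and scrambled siRNA, 2.69 between Baf53b siRNA and control and 0.63 between scrambled siRNA and control. The medians over all 14664 genes tested were 0.0026, 0.038 and 0.041 in the same order. The first and the third comparison share the scrambled siRNA libraries, and the other pairs share Baf53b siRNA or control libraries, so the differences are not independent.

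With limma and Benjamini-Hochberg adjustment over all genes at 0.05, 2 of the 10 genes, H2-D1 and H2-Q5, were called higher in Baf53b siRNA than in scrambled siRNA, where 0.123% of all genes tested were called. There were 7 called higher than in control (H2-D1, H2-K1, H2-Q4, H2-Q5, H2-Q6, H2-Q7 and H2-T23), where 1.23% of all genes were called. None of the 10 was called lower. Between scrambled siRNA and control 0 were called, as for all genes (0.0%), and 4 of the 10 had an unadjusted limma p under 0.05, all higher in scrambled siRNA, against 2.03% of all genes tested. The Baf53b siRNA libraries did not overlap and were higher than scrambled siRNA for 10 of 10 genes (13.1% of all genes tested) and higher than control for 10 of 10 (16.7% of all). Scrambled siRNA libraries lay above control without overlap for 9 of 10 (12.7% of all). Because the genes were chosen for their differences, nothing is read from these counts. All 10 passed the filter at a mean of 1 FPKM, but H2-Q5, H2-Q6, H2-Q7 and H2-M3 passed it only through the Baf53b siRNA libraries. The call of H2-D1 against scrambled siRNA was lost without replicate 1 of Baf53b siRNA and without any library of the other groups. That of H2-Q5 was lost without any scrambled siRNA or control library. Against control, the call of H2-T23 was lost without either control library or replicate 1 of Baf53b siRNA, and the other 6 were kept in each such fit that tested them.

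**Figure D3:**
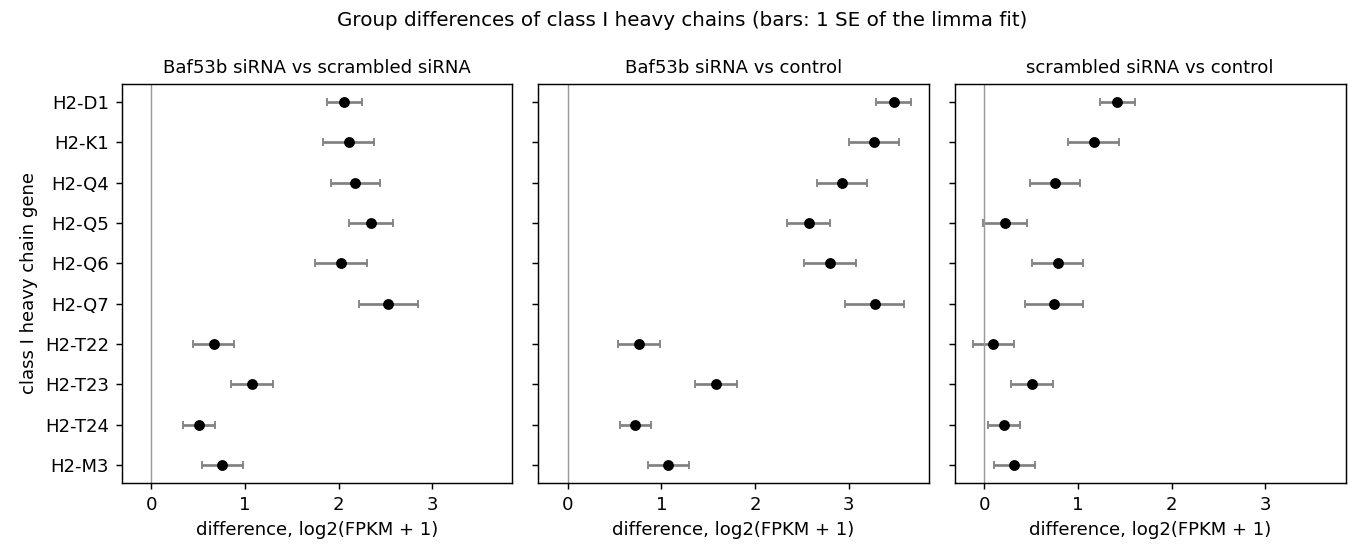
Log2 differences of the 10 class I heavy chain genes in the 3 comparisons on the log2(FPKM + 1) scale; points are the fitted differences and bars 1 SE of the limma fit. The 6 genes H2-D1, H2-K1 and H2-Q lie at 2.02 or above in Baf53b siRNA against scrambled siRNA, and the 4 others at 1.07 or below.

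Summed over the 10 genes, the class I heavy chains stood at 273.9 and 180.0 FPKM in Baf53b siRNA, at 58.3 and 51.2 FPKM in scrambled siRNA and at 27.6 and 24.6 FPKM in control. The sum depends less than single genes do on how fragments are divided within the family. The mean sum was 227 ± 66.4 FPKM in Baf53b siRNA, 54.8 ± 5.01 FPKM in scrambled siRNA and 26.1 ± 2.16 FPKM in control (SD, n = 2 each). The ratio of the mean sums was 4.14 between Baf53b siRNA and scrambled siRNA, 8.69 between Baf53b siRNA and control and 2.1 between scrambled siRNA and control. The sums of the 3 groups did not overlap.

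The makeup of the class I transcript differed as well. H2-K1 and H2-D1 together gave 70.9% and 70.3% of the summed FPKM in Baf53b siRNA, 64.0% and 65.7% in scrambled siRNA and 53.8% and 47.6% in control. The Q-region genes gave 16.1% and 15.6% in Baf53b siRNA, 6.90% and 8.05% in scrambled siRNA and 5.78% and 2.72% in control. Their sums in Baf53b siRNA were 44.2 and 28.1 FPKM, of which the very uncertain H2-Q5 made 4.18 and 6.91 FPKM. How close these shares lie in Baf53b siRNA thus depends on H2-Q5. The T-region genes gave 12.6% ± 0.797 in Baf53b siRNA, 25.9% ± 1.72 in scrambled siRNA and 43.0% ± 7.15 in control (SD, n = 2 each). The share of the T region was thus lowest where the summed level was highest, and its own sum was still higher in Baf53b siRNA, at 28.2 ± 6.54 FPKM against 14.3 ± 2.24 FPKM in scrambled siRNA and 11.2 ± 0.941 FPKM in control (SD, n = 2 each).

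The libraries of Baf53b siRNA differed from each other more than those of the other groups. Replicate 1 held 1.52 times the summed FPKM of replicate 2, with 8 of the 10 genes higher in replicate 1 and H2-Q5 and H2-T24 higher in replicate 2. The ratio of the sums was 1.14 in scrambled siRNA and 1.12 in control. In each pair the first library was also the one with the smaller share of mitochondrial transcripts, at 19.3% and 22.8% of the FPKM in Baf53b siRNA, 15.0% and 26.9% in scrambled siRNA and 19.4% and 29.5% in control. The part of this share in the differences between replicates was not tested.

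Several of these genes share stretches of sequence, and a fragment that matches several copies has to be divided among them. Of the distinct runs of 50 bases in the annotated transcripts of a gene (GENCODE M21), the share also found in another gene was 36.4% for H2-Q5, 34.5% for H2-T22, 32.0% for H2-Q6, 26.4% for H2-Q7 and 21.8% for H2-Q4. It was 13.6% for H2-T23, 12.8% for H2-D1, 9.63% for H2-K1, 3.17% for H2-T24 and 0.576% for H2-M3. H2-Q5 shared most with H2-Q7 (25.5%), and H2-Q6 with H2-Q7 (13.9%) and H2-Q4 (12.3%), all of them Q-region genes of the family. H2-T22 shared 31.2% with H2-T10 and H2-Q7 shared 14.0% with H2-Q10, which are not among the 10 genes. H2-T10 itself was listed at 2.07 and 1.39 FPKM in Baf53b siRNA, at 0.740 and 0.506 FPKM in scrambled siRNA and at 0.560 and 0.361 FPKM in control, well under H2-T22. With runs of 75 bases the shares were lower, at 21.2% for H2-Q5, 18.5% for H2-T22, 5.40% for H2-D1 and 3.10% for H2-K1. The division of fragments is therefore less certain for single Q-region genes and H2-T22 than for H2-D1, H2-K1, H2-T23, H2-T24 and H2-M3. Counting error is a separate limit. In Baf53b siRNA, H2-T24 rested on 73.9 and 112 implied fragments and H2-M3 on 64.5 and 51.9, against 446 and 349 for H2-Q4.

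**Figure D4:**
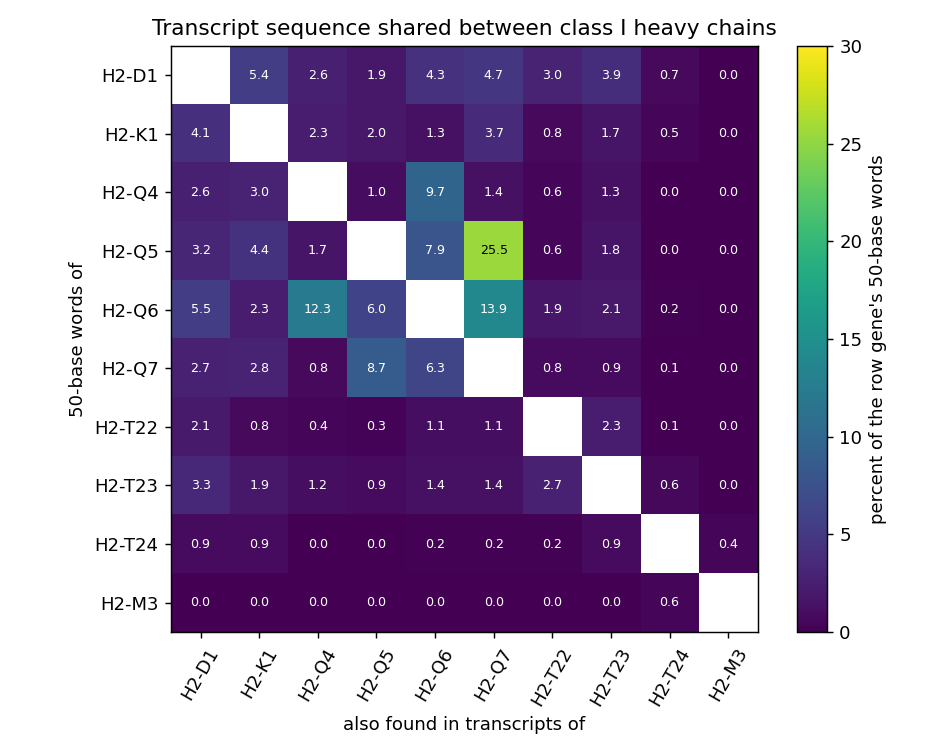
Percentage of the distinct runs of 50 bases in the transcripts of the gene in each row that are also found in transcripts of the gene in each column, as colour and number. The largest shares among these 10 genes are those of H2-Q5 with H2-Q7 (25.5%) and of H2-Q6 with H2-Q7 (13.9%) and H2-Q4 (12.3%).

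Genes that make, load, regulate and read class I molecules were followed in 6 lists of 79 symbols, of which 72 were in the tables and 37 passed the filter. Of the 37, 1 rose in Baf53b siRNA against scrambled siRNA, where 0.123% of all genes rose, and 12 had an unadjusted limma p under 0.05, all higher, as had 2.67% of all genes tested. Against control 9 rose, where 1.23% of all genes rose. None fell in either. Between scrambled siRNA and control 0 changed (limma), and 7 had an unadjusted p under 0.05, all higher in scrambled siRNA, as had 2.03% of all genes tested. The lists were chosen with earlier results of these libraries known.

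Of the 9 genes of the light chain and peptide loading, 0 passed the test against scrambled siRNA and 3 rose against control, with median log2 differences of 0.46 and 0.45. B2m, the light chain, stood at 425 and 326 FPKM in Baf53b siRNA, at 128 and 132 FPKM in scrambled siRNA and at 56.9 and 74.7 FPKM in control. Its groups did not overlap, and it rose by 2.49 on the log2 scale against control (SE 0.19, limma adjusted p = 0.00424). Against scrambled siRNA its difference of 1.51 (SE 0.19) did not pass the test (limma adjusted p = 0.0539). Tap1, a subunit of the peptide transporter, stood at 5.54 and 4.52 FPKM in Baf53b siRNA, at 1.24 and 1.10 FPKM in scrambled siRNA and at 0.751 and 0.458 FPKM in control. It rose by 1.91 against control (limma adjusted p = 0.00631), a call lost without replicate 1 of Baf53b siRNA. Tap2, the other subunit, rose by 1.20 against control (limma adjusted p = 0.0314), a call lost when any library was left out. Tapbp, the tapasin that bridges the transporter and the heavy chain, had log2 differences of 0.47 and 0.56 to scrambled siRNA and control and did not pass the test. The general chaperones Calr and Canx had differences of -0.02 and 0.02 to scrambled siRNA.

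Of the 5 genes of the immunoproteasome and its activator, 1 rose against scrambled siRNA and 2 rose against control. Psmb9, an interferon-induced catalytic subunit whose gene neighbours Tap1, stood at 5.74 and 4.90 FPKM in Baf53b siRNA, at 1.00 and 1.21 FPKM in scrambled siRNA and at 0.508 and 0.606 FPKM in control. It rose by 1.58 on the log2 scale against scrambled siRNA (SE 0.17, limma adjusted p = 0.0304) and by 2.02 against control (limma adjusted p = 0.00466). The call against scrambled siRNA was lost when any library was left out, and that against control was kept each time. Psmb9 and Tap1 passed the filter only through the Baf53b siRNA libraries, their mean over the 4 other libraries being 0.832 and 0.888 FPKM, and a gene kept in this way had to differ. Psmb8, the subunit encoded beside it, stood at 14.3 and 9.38 FPKM in Baf53b siRNA, at 2.59 and 3.81 FPKM in scrambled siRNA and at 1.05 and 1.26 FPKM in control. It rose by 2.55 against control (limma adjusted p = 0.00611), and its difference of 1.60 to scrambled siRNA did not pass the test (limma adjusted p = 0.106). Psme1 and Psme2, the subunits of the activator, had differences of 0.23 and 0.32 to scrambled siRNA and did not pass the test.

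Of the 16 regulators of class I transcription, 14 passed the filter, 0 passed the test against scrambled siRNA and 2 rose against control, with median log2 differences of 0.12 and 0.24. Irf1, an interferon-induced factor that binds class I promoters, stood at 8.80 and 7.69 FPKM in Baf53b siRNA, at 3.54 and 3.77 FPKM in scrambled siRNA and at 3.60 and 3.46 FPKM in control. Its scrambled siRNA and control libraries overlapped, and it rose by 1.03 against control (limma adjusted p = 0.0248), a call lost when any library was left out. Nlrc5, the activator that acts on class I promoters, was below the filter, at 2.37 and 1.92 FPKM in Baf53b siRNA, at 0.0928 and 0.266 FPKM in scrambled siRNA and at 0.115 and 0.0881 FPKM in control. Both Baf53b siRNA libraries were above all others for Nlrc5, which was not tested. Irf9 and Stat2 had differences of 0.33 and 0.30 to scrambled siRNA and did not pass the test.

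Of the 10 genes of interferons, tumour necrosis factor and their receptors, 6 passed the filter, 0 passed the test against scrambled siRNA and 2 rose against control. Those 2 were the tumour necrosis factor receptors Tnfrsf1b (log2 difference 1.33, limma adjusted p = 0.0190) and Tnfrsf1a (1.07, limma adjusted p = 0.0374). The first call was lost without either control or either Baf53b siRNA library, and the second when any library was left out. The interferon receptor subunits Ifngr1 and Ifnar2 had differences of 0.45 and 0.38 to scrambled siRNA and did not pass the test. Ifnb1 and Ifna4 were listed at 0 in all 6 libraries, Ifng at 0 in all but replicate 2 of Baf53b siRNA (0.0424 FPKM), and Tnf at 0.162 FPKM or less.

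None of the 14 receptors of class I in the tables passed the filter. Pirb, an inhibitory receptor of class I on myeloid cells and neurons of the mouse, stood at 0.875 and 0.976 FPKM in Baf53b siRNA, at 0.211 and 0.498 FPKM in scrambled siRNA and at 0.168 and 0.167 FPKM in control. Its Baf53b siRNA libraries were above the rest and under 1 FPKM. Of 19 other class I and class I-like heavy chains in the tables, 3 passed the filter and 0 passed the test in either comparison with Baf53b siRNA. Mr1, which presents vitamin metabolites, Hfe, a regulator of iron uptake, and Fcgrt, the neonatal Fc receptor, had log2 differences of 0.45, 0.24 and 0.13 to scrambled siRNA. Below the filter, mean FPKM in Baf53b siRNA, scrambled siRNA and control was 0.871, 0.217 and 0.0800 for H2-Q1. It was 0.352, 0.0680 and 0.0440 for H2-Q10, and 0.433, 0 and 0 for H2-M2. For H2-Q2, H2-M5 and H2-Bl the Baf53b siRNA libraries overlapped the others. These genes were not tested in the main fit.

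**Figure D5:**
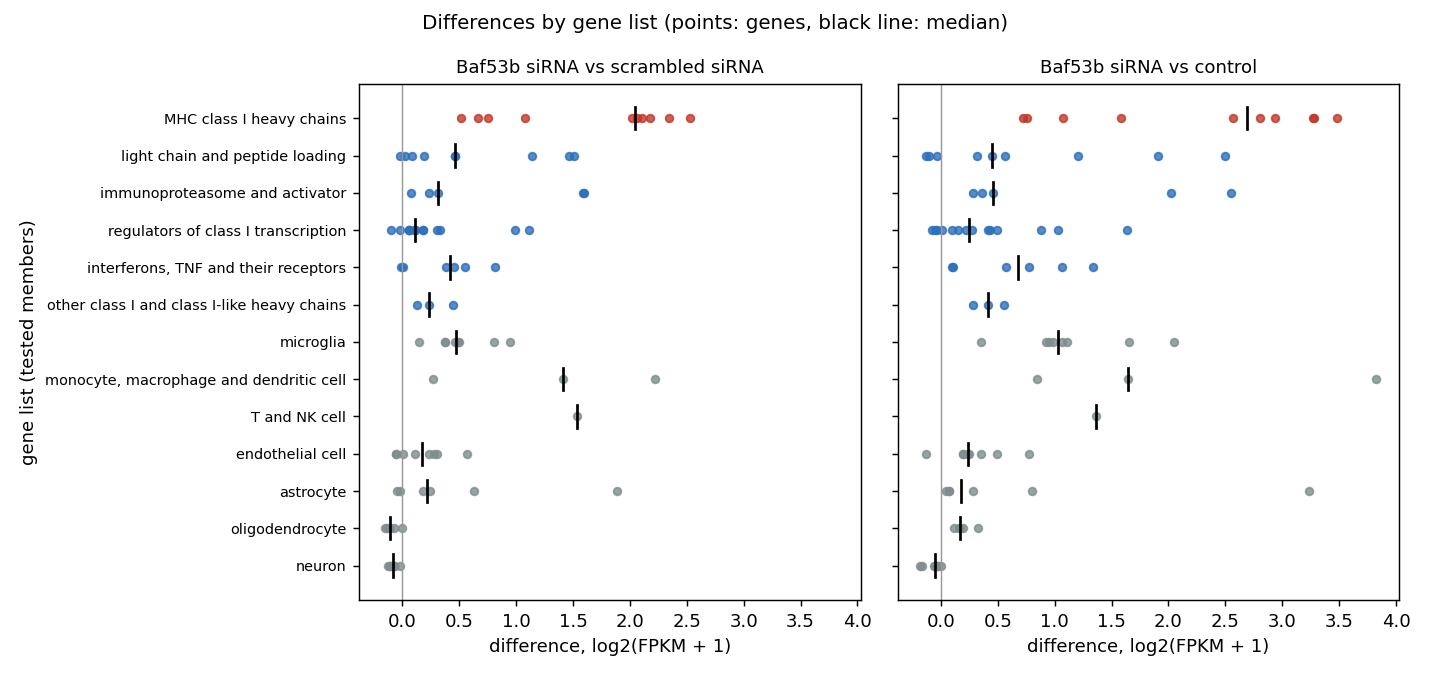
Log2 differences on the log2(FPKM + 1) scale in Baf53b siRNA against scrambled siRNA (left panel) and against control (right panel), with 1 row for each gene list; points are genes that passed the filter and black lines their medians, red for the heavy chains, blue for the pathway lists and grey for cell type markers. The heavy chains have medians of 2.04 and 2.69, and the neuron markers of -0.08 and -0.05.

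Microglia markers, and those of monocytes, macrophages and dendritic cells, had summed levels in the same group order as the class I sum. The markers of T and NK cells and of astrocytes did so too. The mean sums of the endothelial markers and of the central amygdala and striatum markers also had this order, though their Baf53b siRNA and scrambled siRNA libraries overlapped. In bulk tissue, more cells of a type and more RNA per cell cannot be told apart. The 8 microglia markers summed to 549 and 452 FPKM in Baf53b siRNA, 332 and 335 FPKM in scrambled siRNA and to 222 and 214 FPKM in control. Against scrambled siRNA 0 of the 8 passed the test. Against control 5 of the 8 rose, among them Cx3cr1, Aif1, Itgam and C1qa, where 1.23% of all genes tested rose. The call of C1qa was kept with each library left out, that of Aif1 was lost without control replicate 1 or Baf53b siRNA replicate 1, and those of Cx3cr1 and Itgam were lost when any library was left out. C1qa, a chain of the first complement component, stood at 170.2 and 122 FPKM in Baf53b siRNA, at 71.3 and 76.8 FPKM in scrambled siRNA and at 36.7 and 31.4 FPKM in control, with no overlap between the groups. The ratio of the mean sums was 1.502 to scrambled siRNA and 2.29 to control, against 4.14 and 8.69 for the class I sum.

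The 8 markers of monocytes, macrophages and dendritic cells summed to 42.4 and 72.9 FPKM in Baf53b siRNA, 15.1 and 13.9 FPKM in scrambled siRNA and to 6.56 and 4.97 FPKM in control, with ratios of the mean sums of 3.98 to scrambled siRNA and 10.002 to control. Lyz2, the lysozyme of myeloid cells, was the most abundant of them in Baf53b siRNA and scrambled siRNA, at 27.1 and 59.6 FPKM in Baf53b siRNA, at 7.78 and 7.94 FPKM in scrambled siRNA and at 2.50 and 1.42 FPKM in control. Their sum was higher in replicate 2 of Baf53b siRNA through Lyz2. Without Lyz2 it was 15.3 and 13.3 FPKM in the Baf53b siRNA libraries, and 4 of the 8 markers were higher in replicate 1, 4 in replicate 2. Of the 3 that passed the filter, 0 passed the test against scrambled siRNA. Against control 2 rose (Lyz2 and Plac8), where 1.23% of all genes tested rose. The call of Plac8, which passed the filter only through the Baf53b siRNA libraries, was lost without either control library. The 8 markers of T and natural killer cells summed to 11.9 and 5.27 FPKM in Baf53b siRNA, 2.16 and 1.35 FPKM in scrambled siRNA and to 1.33 and 0.682 FPKM in control, with ratios of 4.88 and 8.53. Cd3e, Cd3d, Cd3g and Nkg7 were listed at 0 in both control libraries. Only Trac passed the filter, through the Baf53b siRNA libraries alone, with 0 called. Trac stood at 6.69 and 2.29 FPKM in Baf53b siRNA, at 0.799 and 0.674 FPKM in scrambled siRNA and at 1.29 and 0.661 FPKM in control. Trac and Gzmb had lower means in scrambled siRNA than in control, and the other markers of this list had higher ones. The part of these cells in the class I levels was not tested.

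Astrocyte markers had summed ratios of 1.31 to scrambled siRNA and 1.42 to control. Gfap, the astrocyte intermediate filament, was called against both and Aqp4 against control. Of all genes tested, 0.123% were called higher against scrambled siRNA and 1.23% against control. The ratios came largely through Gfap, with means of 174 FPKM in Baf53b siRNA, 46.2 FPKM in scrambled siRNA and 17.6 FPKM in control. Against scrambled siRNA 4 of the 6 astrocyte markers were higher and 2 lower, Aldh1l1 (-0.04) and Slc1a2 (-0.02). The call of Gfap against scrambled siRNA was lost without scrambled siRNA replicate 1, and that of Aqp4 when any library was left out. The endothelial, oligodendrocyte and neuron markers had ratios of 1.29, 1.15 and 0.970 to control, with 0 called in each. To scrambled siRNA their ratios were 1.09, 0.929 and 0.943, also with 0 called. The ratio was 0.950 for the markers of the lateral and basolateral amygdala and 1.07 for those of the neighbouring central amygdala and striatum, where Prkcd alone was called, against control, and lost that call when any library was left out.

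The genes with the profile most like the family were found over the 14654 other genes tested. Likeness was the root mean square difference between a gene's log2(FPKM + 1) values over the 6 libraries, centred on their mean, and the mean centred profile of the 10 heavy chains. The closest were Tap1 (0.152), Cybb (0.156), Igtp (0.158), Psmb9 (0.159) and S100a4 (0.159). Cybb is a subunit of the phagocyte NADPH oxidase, Igtp an interferon-induced GTPase and S100a4 a calcium-binding protein. The heavy chains themselves lay between 0.265 (H2-Q6) and 0.680 (H2-T24) from their own mean. Cybb stood at 3.47 and 2.98 FPKM in Baf53b siRNA, at 0.297 and 0.204 FPKM in scrambled siRNA and at 0.0181 and 0.00814 FPKM in control. Igtp stood at 8.08 and 4.90 FPKM in Baf53b siRNA, at 1.16 and 1.48 FPKM in scrambled siRNA and at 0.780 and 0.782 FPKM in control. Cybb, Tap1 and Psmb9 passed the filter only through the Baf53b siRNA libraries, as did H2-Q5, H2-Q6, H2-Q7 and H2-M3 among the heavy chains. A gene kept in this way had to be higher there, so its likeness is partly built in. The likeness is a description over 6 libraries that share their groups.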

How the data were processed

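Polyadenylated RNA was made into stranded libraries and sequenced from both ends, per the labels' protocols. The submitters' processing notes name the build mm10, Cufflinks 2.2.1, TopHat2 2.1.1 and bcl2fastq 2.19.1.403. Read length, annotation and settings were not stated there. The authors deposited FPKM per gene with interval bounds and a status, per the file headers. Of each table, 92 spike-in rows were left out, 48 gene IDs with several rows were summed, and 4 genes with a failed estimate were dropped. Of the 50383 gene IDs, 50160 matched GENCODE M21, and 9 of the 10 heavy chains had its start and end (H2-K1 did not).

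Values were log2(FPKM + 1), with a pseudocount of 1. Genes at a mean of 1 FPKM or more were kept, 353 small RNA genes were left out, and 14664 genes were tested with limma 3.58.1 in R 4.3.3. Group means were fitted to all 6 libraries (eBayes with trend, 3 residual and 3.99 prior degrees of freedom), two-sided, with Benjamini-Hochberg adjustment at 0.05. Fragments behind a value were estimated from the deposited interval, taking its width as a counting error, since read counts were not used here. Intervals in the text are at 95%. Baf53b siRNA against scrambled siRNA was simulated with 14664 genes, 200 of them changed in each of 10 datasets. On the log2(FPKM + 1) scale 73.2% of 2-fold and 99.1% of 4-fold changes were recovered, and 7.12% of calls were unchanged genes. The simulated noise was normal and independent, with the spread fitted by limma, and genes of low level were not changed. These shares hold for that setting only. In the data H2-K1, H2-Q4, H2-Q6 and H2-Q7 differed by 2.02 or more and were not called.

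The 10 heavy chains, the gene lists and the motif letters were chosen with earlier results of these data known. Named were all heavy chains, Actl6b, up to 4 genes of a list (those called or with the largest difference to scrambled siRNA, B2m, Tap1, Psmb8, Nlrc5 and Pirb always), the 2 most abundant markers of a cell type, and the 5 genes of most similar profile. Some genes that this rule names are not reported here. Other genes named, such as those of a list called against control and those at 0, were named after their values were seen. Alternatives changed the pseudocount, filter, scaling, the small RNA genes, the groups fitted, the eBayes setting and the replicate block, and left out each library in turn.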

Additional observations from a re-analysis of the deposited data

How the results depend on the processing

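Limits: 2 libraries a group, no read counts, Q-region levels that depend on how fragments were divided, and libraries that may be pools. The summed class I log2 ratio lay between 1.72 and 2.32 with a library left out (main 2.05) for Baf53b siRNA against scrambled siRNA, and between 2.78 and 3.39 (main 3.12) against control. The lowest value of each was without replicate 1 of Baf53b siRNA. Between scrambled siRNA and control it lay between 0.97 and 1.16 (main 1.07). The count of heavy chains called against scrambled siRNA (main 2) was 0 with a pseudocount of 0.1, without the filter or with small RNA genes kept, 1 at a mean of 5 FPKM, 4 with quantile normalization or scaling outside mitochondrial genes, and 5 with median of ratios scaling or robust eBayes. Leaving out a library gave 0 to 5 (0 without any scrambled siRNA or control library, 1 without replicate 1 of Baf53b siRNA, 5 without replicate 2). Pathway genes called (main 1) were 0 with a pseudocount of 0.1, without the filter, at 5 FPKM, with small RNA genes kept and with each library left out (0 to 0), 2 with median of ratios scaling, and 3 with quantile normalization or robust eBayes. Against control, heavy chains called (main 7) were 1 without the filter, 4 at 5 FPKM, where fewer of them are tested, and 6 to 7 with a library left out. Pathway genes (main 9) were 2 without the filter, 3 at 5 FPKM and 3 to 6 with a library left out. B2m, Psmb8 and Psmb9 kept their call against control with every library left out. Between scrambled siRNA and control both counts were 0 throughout (limma). The log2 difference of H2-T22 between scrambled siRNA and control (main 0.10) lay between -0.13 (without scrambled siRNA replicate 1) and 0.32 (without scrambled siRNA replicate 2) and was -0.07 without control replicate 1. In all other settings run, every heavy chain kept its direction in the 3 comparisons. The cause of the changes in count was not tested. Same-numbered libraries had correlated deviations (0.36, 0.18 and 0.39 over 14664 genes), but with 2 numbers and no label that ties them the samples share only a number. With the replicate block, heavy chains called against scrambled siRNA were 2 (H2-K1 was gained and H2-Q5 lost) and pathway genes 0 (Psmb9 was lost). Against control, Tap2 and Prkcd were lost and Csf1r and Tmem119 gained. It changed no other call of a gene listed here.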
